A study of Mus musculus with 38 samples.

Results

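Genes named for signalling in T cells were followed through B cells on their way to antibody-secreting plasma cells. The set held 7 genes, taken by symbol: Lck, Cd247, Cd8b1, Lat, Lax1, Cd2 and Cd5 (LCK, CD247, CD8B1, LAT, LAX1, CD2 and CD5 in the files). All 7 were listed in all 14 RNA libraries, where the files name 11441 to 20650 genes with a single entry each. The genes were chosen by name, with their RPKM levels and group differences in these same libraries known. The members' values are therefore a description. Where a member is called below, the call comes from a fit over all genes and is set beside the share of all genes called. It is no independent test of the member, and the counts of members called support nothing.

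The T cell receptor signals through a relay. Its CD3 and zeta chains carry tyrosine motifs, a Src family kinase docked on the CD4 or CD8 coreceptor phosphorylates them, and the signal is then gathered on a transmembrane adaptor. B cells run a parallel relay through Cd79a and Cd79b, the kinases Lyn and Blk and the adaptor Lat2. Blimp1, encoded by Prdm1, is the repressor that ends the B cell programme in plasma cells, and it is also active in effector T cells.

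The study compared mouse B cells of C57BL/6 background at several steps of this change, with 2 libraries in each of 7 groups. Blimp1-deficient pre-plasmablasts had the genotype Blimp1(GFP/fl) Cd23(Cre/+), in which Cd23-Cre, active in mature B cells, deletes the floxed allele, and were sorted after 4 days of lipopolysaccharide (LPS) as CD138– GFP+ cells high for CD22. Control cells, Blimp1(GFP/+) Cd23(Cre/+), were cultured alike and sorted as GFP– CD138– activated B cells, GFP+ CD138– pre-plasmablasts or GFP+ CD138+ plasmablasts. Genotype and the CD22 gate thus differ together, and their effects cannot be told apart. In a second experiment Blimp1(GFP/+) cells with 4 days of LPS received GSK343, which inhibits the histone methyltransferase EZH2, or its solvent DMSO, and pre-plasmablasts were sorted. Plasma cells of Blimp1(GFP/+) mice were sorted ex vivo as CD28+ CD138+ GFP+ cells, negative for lineage markers. Every group carries the GFP allele of Blimp1.

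Levels are RPKM values, reads scaled to transcript length and to library size, and can be compared between genes. Between 9188 and 10077 genes reached 1 RPKM in a library. The 8 libraries from Blimp1-deficient and control cells were deposited with GC normalization, and the 4 inhibitor libraries and 2 plasma cell libraries without it. Levels are set side by side across these 3 file types below but were compared only within them. Prdm1 was at 199 and 171 RPKM in Blimp1-deficient pre-plasmablasts, against 429 and 327 RPKM in control pre-plasmablasts. Because transcripts of the GFP allele are counted in it, this level is only a partial check of the genotype. In bulk RNA, fewer cells expressing a gene and less RNA per cell cannot be told apart.

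Lck lies on chromosome 4, Cd247 and Lax1 on chromosome 1, Cd8b1 on chromosome 6, Lat on chromosome 7, Cd2 on chromosome 3 and Cd5 on chromosome 19. Each is annotated as protein-coding. The span of Cd247 overlaps the coding gene Pou2f1, and no source used here says whether reads were counted by strand, which makes the values of Cd247 less certain.

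Promoter windows of 300 bases, 250 before to 50 after an annotated start, are shown for Lck, Lat and Cd5, which stood higher in both GSK343 libraries than in both DMSO libraries, and for Lax1, the member with the widest range of levels over the GC-normalized libraries. RefSeq (build GRCm38.p6) gave 7 windows for 5 of the 7 members. Cd2 and Cd8b1 had none. Capitals mark the ETS core AGGAAG or its reverse complement CTTCCT, the letters bound by ETS factors such as Ets1 and Spi1. Each sequence reads 5′ to 3′ along the gene's strand.
Lck first start, chr4:129573592-129573891, minus strand: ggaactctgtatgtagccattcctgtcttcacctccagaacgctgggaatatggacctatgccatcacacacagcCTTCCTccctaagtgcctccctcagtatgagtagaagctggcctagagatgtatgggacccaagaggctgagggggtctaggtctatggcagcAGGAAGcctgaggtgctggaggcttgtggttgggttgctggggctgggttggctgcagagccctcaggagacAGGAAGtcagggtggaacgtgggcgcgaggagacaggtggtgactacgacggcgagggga
Lck second start, chr4:129558323-129558622, minus strand: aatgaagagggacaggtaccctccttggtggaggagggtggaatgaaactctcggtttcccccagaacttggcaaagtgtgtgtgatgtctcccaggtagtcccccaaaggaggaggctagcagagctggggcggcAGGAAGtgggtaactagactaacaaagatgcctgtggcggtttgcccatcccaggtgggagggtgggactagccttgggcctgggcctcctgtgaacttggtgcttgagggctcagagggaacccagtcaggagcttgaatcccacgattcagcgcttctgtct
Lat, chr7:126369519-126369818, minus strand: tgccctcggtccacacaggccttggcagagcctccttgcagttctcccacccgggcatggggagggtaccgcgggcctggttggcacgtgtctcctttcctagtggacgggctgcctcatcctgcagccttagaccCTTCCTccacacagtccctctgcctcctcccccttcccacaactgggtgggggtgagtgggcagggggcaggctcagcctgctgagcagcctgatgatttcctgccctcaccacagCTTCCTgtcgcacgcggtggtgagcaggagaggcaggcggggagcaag
Cd5, chr19:10738925-10739224, minus strand: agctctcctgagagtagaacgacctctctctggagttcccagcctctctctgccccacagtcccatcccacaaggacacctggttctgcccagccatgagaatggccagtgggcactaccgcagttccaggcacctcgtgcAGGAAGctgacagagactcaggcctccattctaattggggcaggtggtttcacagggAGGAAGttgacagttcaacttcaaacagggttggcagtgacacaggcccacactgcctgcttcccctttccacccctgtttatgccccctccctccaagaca
Lax1 first start, chr1:133690059-133690358, minus strand: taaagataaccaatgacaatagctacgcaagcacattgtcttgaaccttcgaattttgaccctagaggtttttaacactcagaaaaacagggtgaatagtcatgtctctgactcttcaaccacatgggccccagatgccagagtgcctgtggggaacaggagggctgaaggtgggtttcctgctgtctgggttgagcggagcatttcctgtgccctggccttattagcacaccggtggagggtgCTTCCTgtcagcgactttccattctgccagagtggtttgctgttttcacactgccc
The ETS core was present on either strand in 7 of the 7 member windows, against 35.4% of all 32851 windows of that length. The 2 windows of Lax1 overlap and share a match, so the 7 windows are not separate and stand for 5 genes. This motif was chosen after the windows had been read, so the count is a description. A Blimp1 core, AGNGAAAG on either strand, matched 0 of the 7 windows, against 8.63% of all windows. The ETS-IRF composite element (EICE) on either strand, which shares the letters GGAA with the ETS core, matched 0 of 7, against 2.72% of all windows. A match is a description of letters and not a bound site.

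**Figure D1:**
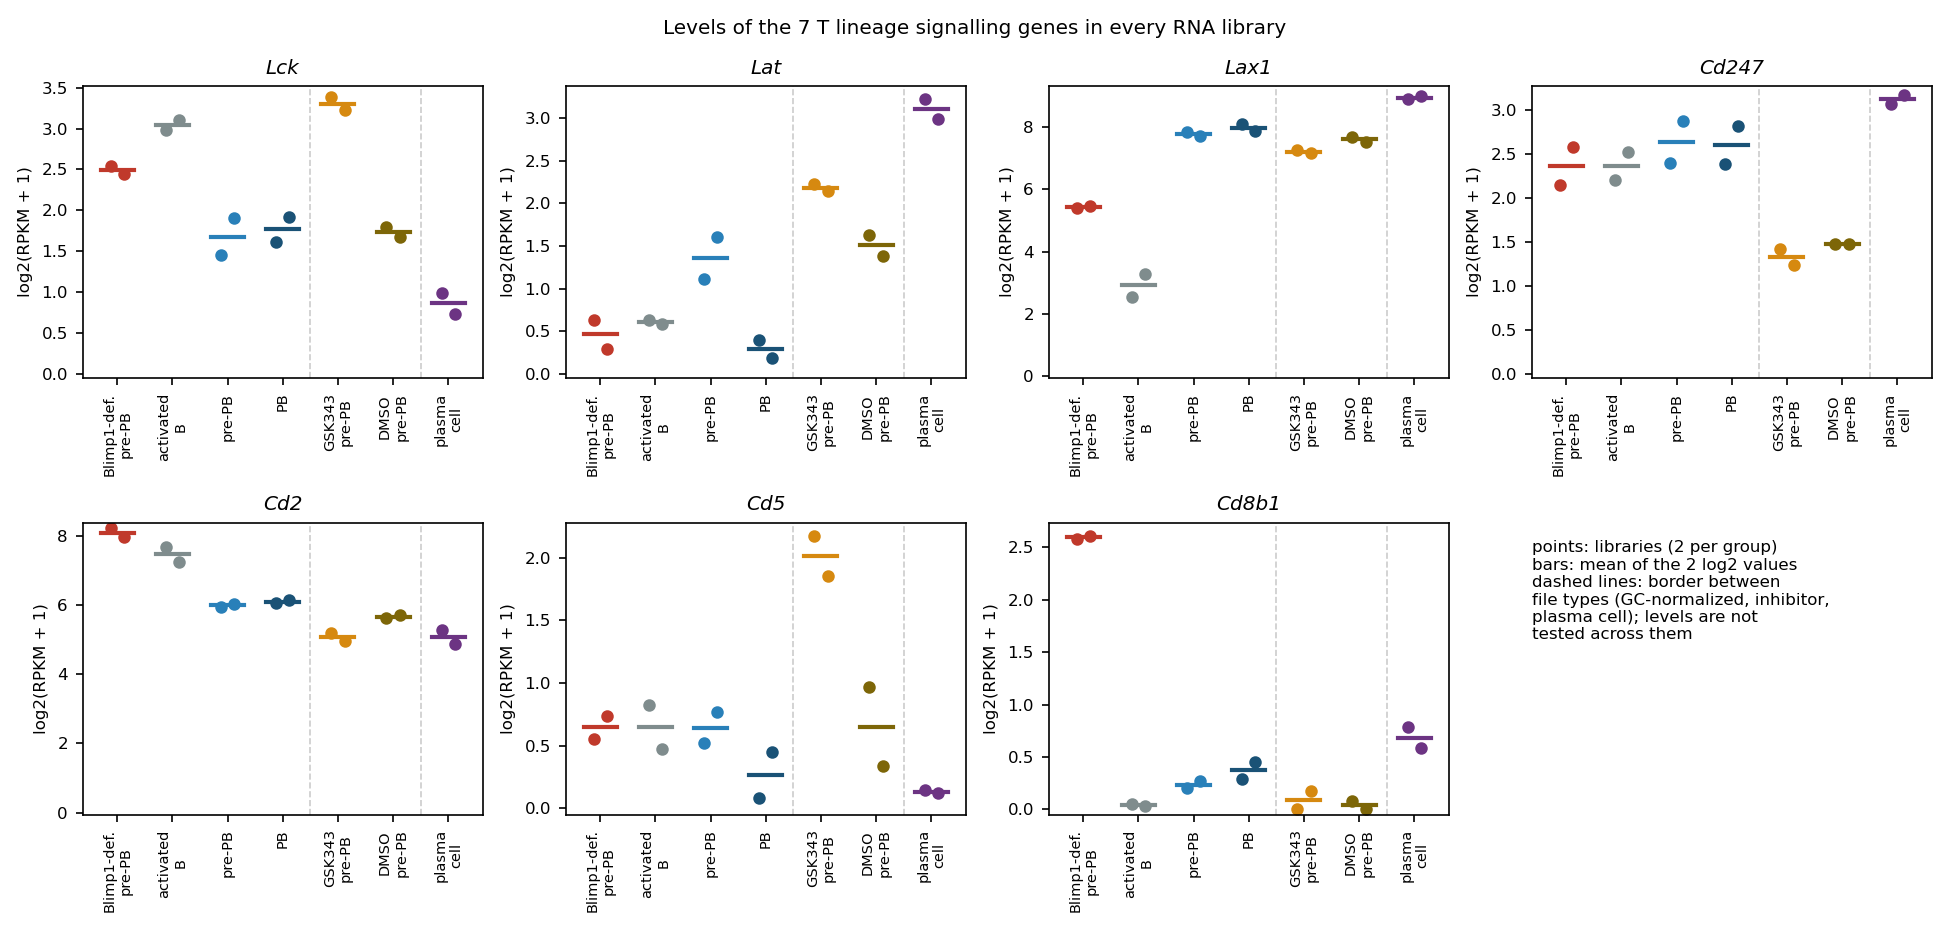
Levels of the 7 genes as log2(RPKM + 1), on the vertical axis of each panel, in each of the 14 libraries (points, 2 per group), with the mean of the log2 values as a bar and dashed lines between file types. Within the GC-normalized libraries Lax1 lies lowest in activated B cells, at 4.84 and 8.75 RPKM, and Cd8b1 stands apart in the Blimp1-deficient libraries at 4.99 and 5.09 RPKM.

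Lck, the Src family kinase that starts T cell receptor signalling, was present at low levels in all 7 groups. It stood at 4.82 and 4.45 RPKM in Blimp1-deficient pre-plasmablasts, against 1.74 and 2.75 RPKM in control pre-plasmablasts. Both deficient libraries were above both controls, by 0.81 ± 0.18 on the scale of log2(RPKM + 1), which is used for every difference here (SE, n = 2 each). Along the stages Lck was at 6.91 and 7.63 RPKM in activated B cells, 1.74 and 2.75 RPKM in pre-plasmablasts and 2.07 and 2.79 RPKM in plasmablasts. Pre-plasmablasts were below activated B cells by a log2 difference of -1.37 ± 0.18, and the ranges of plasmablasts and pre-plasmablasts overlapped. The deficient cells lay between the activated and the pre-plasmablast levels, with no overlap with either. With GSK343 Lck stood at 9.47 and 8.35 RPKM, against 2.46 and 2.20 RPKM with DMSO, a log2 difference of 1.57 ± 0.13. The ratio of these means was 3.83. Plasma cells had 0.984 and 0.665 RPKM.

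Cd247 encodes the zeta chain of the T cell receptor complex, which also serves Fc receptors of natural killer (NK) cells. It stood at 3.43 and 4.98 RPKM in Blimp1-deficient pre-plasmablasts, against 4.27 and 6.31 RPKM in control pre-plasmablasts. It was at 3.62 and 4.72 RPKM in activated B cells and at 4.21 and 6.04 RPKM in plasmablasts. The ranges of neighbouring groups in the order of these 4 groups all overlapped. In each of them the second library was the higher one. The titles number these libraries in 2 series, with 1 library of each series in every group, and a fit with that series as a blocking term is called a series block here. With GSK343 it was at 1.68 and 1.36 RPKM, against 1.78 and 1.78 RPKM with DMSO, a log2 difference of -0.14 ± 0.14. Plasma cells had 7.38 and 8.03 RPKM.

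Cd8b1, the beta chain of the CD8 coreceptor on cytotoxic T cells, reached 1 RPKM in 2 of the 14 libraries. It stood at 4.99 and 5.09 RPKM in Blimp1-deficient pre-plasmablasts, against 0.150 and 0.207 RPKM in control pre-plasmablasts. These deficient libraries were the 2 above 1 RPKM. The ratio of the means was 28.2, and the log2 difference of 2.36 ± 0.10 understates it because 1 RPKM was added to low values. Along the stages the gene was at 0.0382 and 0.0210 RPKM in activated B cells, 0.150 and 0.207 RPKM in pre-plasmablasts, and 0.220 and 0.371 RPKM in plasmablasts. These 3 ranges did not overlap, and the number of reads behind them is unknown. The log2 differences of the 2 steps were 0.19 ± 0.10 and 0.13 ± 0.10, neither of them called. Cd8b1 was listed at 0 and 0.130 RPKM with GSK343 and at 0.0540 and 0 RPKM with DMSO, and at 0.719 and 0.499 RPKM in plasma cells. Cd8a, the chain that pairs with it on T cells, was listed in the inhibitor and plasma cell files, at no more than 0.0295 RPKM.

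Lat, the adaptor on which T cells assemble phospholipase C gamma and Grb2, was low in cultured cells. It stood at 0.552 and 0.223 RPKM in Blimp1-deficient pre-plasmablasts, against 1.17 and 2.05 RPKM in control pre-plasmablasts, a log2 difference of -0.90 ± 0.20. Along the stages it was at 0.545 and 0.503 RPKM in activated B cells, 1.17 and 2.05 RPKM in pre-plasmablasts and 0.314 and 0.141 RPKM in plasmablasts. Control pre-plasmablasts were thus above each of the other 3 groups, whose ranges overlapped with their neighbours in order. With GSK343 Lat was at 3.67 and 3.41 RPKM, against 2.10 and 1.60 RPKM with DMSO, a log2 difference of 0.68 ± 0.14. Plasma cells had 8.35 and 6.93 RPKM.

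Lax1, a relative of Lat that restrains receptor signalling in both B and T cells, followed the plasma cell stages. It stood at 40.9 and 43.4 RPKM in Blimp1-deficient pre-plasmablasts, against 226 and 210 RPKM in control pre-plasmablasts. Along the stages it was at 4.84 and 8.75 RPKM in activated B cells, 226 and 210 RPKM in pre-plasmablasts, and 270 and 233 RPKM in plasmablasts. The step into pre-plasmablasts was a log2 difference of 4.86 ± 0.23, a ratio of means of 32.1. The deficient cells differed from control pre-plasmablasts by -2.34 ± 0.23 and from activated B cells by 2.52 ± 0.23, so they lay between both without overlap. With GSK343 Lax1 was at 151 and 141 RPKM, against 204 and 182 RPKM with DMSO, a log2 difference of -0.40 ± 0.08. Plasma cells had 469 and 506 RPKM.

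Cd2, an adhesion receptor that binds Cd48 in mice, is found on mouse B cells as well as T cells and was the most abundant member in activated B cells. It stood at 295 and 249 RPKM in Blimp1-deficient pre-plasmablasts, against 60.5 and 64.1 RPKM in control pre-plasmablasts, a log2 difference of 2.10 ± 0.16. Along the stages it was at 204 and 151 RPKM in activated B cells, 60.5 and 64.1 RPKM in pre-plasmablasts and 65.6 and 69.1 RPKM in plasmablasts. The order of means was deficient, activated, plasmablast and control pre-plasmablast, and none of these ranges overlapped with the next. The last step was small, with plasmablasts 0.11 ± 0.16 above control pre-plasmablasts on the log2 scale and no call. The deficient cells were 0.62 ± 0.16 above activated B cells on the log2 scale. With GSK343 Cd2 was at 35.6 and 30.2 RPKM, against 48.4 and 50.9 RPKM with DMSO, a log2 difference of -0.58 ± 0.10. Lck and Cd2 were both higher in the deficient cells than in controls, and with GSK343 Lck stood above and Cd2 below DMSO. Plasma cells had 38.0 and 28.3 RPKM.

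Cd5, a scavenger receptor family member that dampens antigen receptor signalling in T cells and in the B-1a subset of B cells, was under 1 RPKM in every library outside the GSK343 group. It stood at 0.466 and 0.669 RPKM in Blimp1-deficient pre-plasmablasts, against 0.432 and 0.707 RPKM in control pre-plasmablasts. It was at 0.770 and 0.387 RPKM in activated B cells and at 0.0564 and 0.366 RPKM in plasmablasts, so that the first 3 groups overlapped and plasmablasts lay lowest. With GSK343 it was at 3.52 and 2.62 RPKM, against 0.960 and 0.261 RPKM with DMSO. Both GSK343 libraries were above both DMSO libraries, by a log2 difference of 1.36 ± 0.20 and a ratio of means of 5.02. Plasma cells had 0.109 and 0.0853 RPKM.

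**Figure D2:**
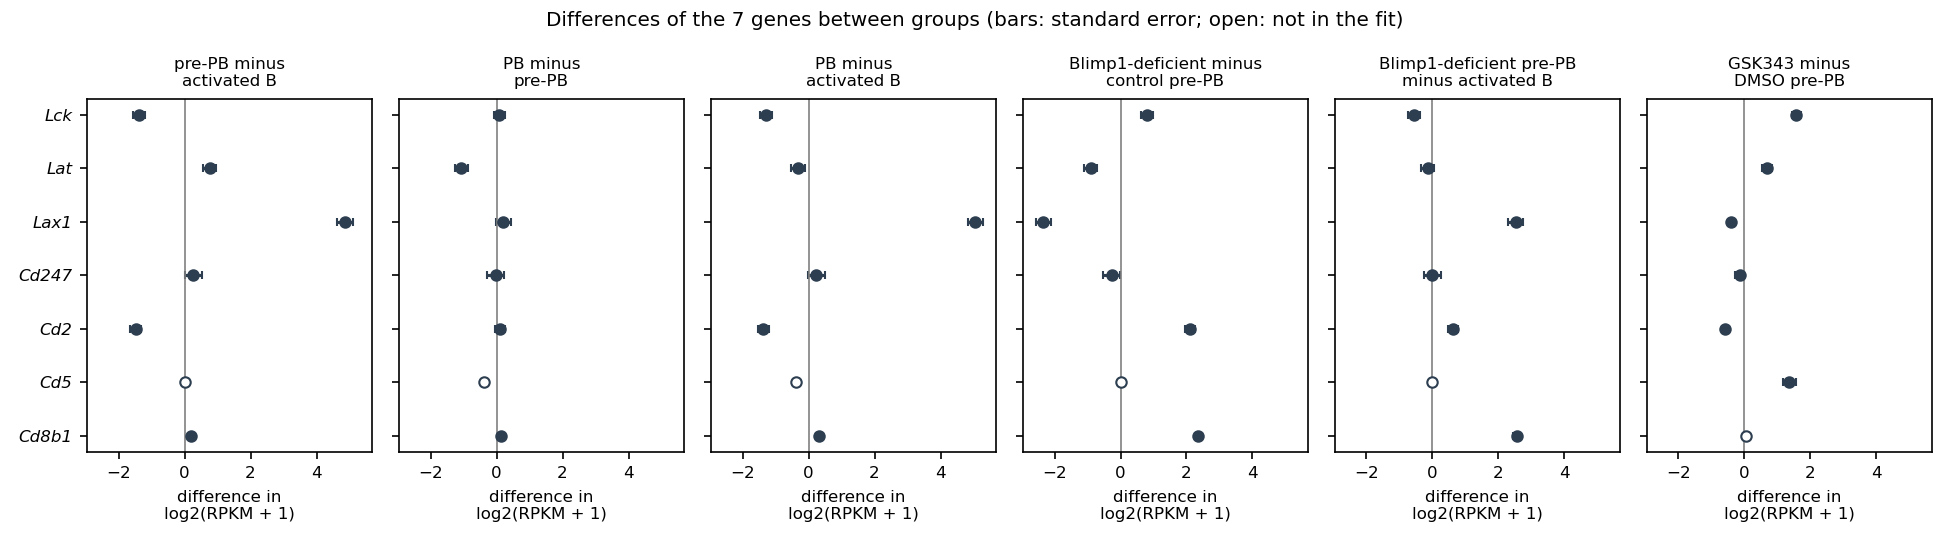
Differences of the 7 genes in log2(RPKM + 1) (horizontal axis) for 6 comparisons, with standard errors from the limma fit as bars and open points for genes outside the fit. Lax1 has the widest difference, 5.06 in plasmablasts against activated B cells, and Cd8b1 differs by 2.36 in Blimp1-deficient against control pre-plasmablasts.

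Blimp1-deficient pre-plasmablasts were set against control pre-plasmablasts, which differ in genotype and in the CD22 gate. Of the 7 members, 6 passed the filter of 1 RPKM in at least 2 of the GC-normalized libraries. Cd5 did not pass, Cd8b1 passed only through the deficient libraries and Lat only through the control pre-plasmablasts. At a limma adjusted p below 0.05 over all genes, 5 members were called, with 40.4% of all 10473 genes tested called as background. The calls were Lck, Cd2 and Cd8b1 with higher values (background 24.4%) and Lat and Lax1 with lower values (background 16.1%) in the deficient cells. With the library series as a block, which called 6829 of the 10473 genes tested, Cd247 was called too. The call on Lck was lost without the first deficient or the first control library and that on Lat without the second deficient library. Rescaling the libraries by the median of ratios moved the median over all genes, 0.12 in the deposited values, to 0.01, and the share of higher calls, 60.3% of those called, to 48.2%. Relative to it Lck differed by 0.72, Lat by -0.95, Lax1 by -2.46, Cd2 by 1.98 and Cd8b1 by 2.28 on the log2 scale.

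Other genes of the T cell receptor relay did not move in a single direction in the deficient cells. Of 9 tested genes in that list, 4 rose and 1 fell (median log2 fold change 0.03, against 0.12 over all genes). Beside this list and those below, 24.4% of all genes were called higher and 16.1% lower. Lcp2, the SLP-76 adaptor that joins Lat, was at 4.53 ± 0.484 RPKM in deficient cells and 0.237 ± 0.0844 RPKM in controls (SD, n = 2 each; log2 fold change 2.16 ± 0.11, limma adjusted p = 5.67e-05). Lcp2 passed the filter only through the deficient libraries, the group where it is high. Its call, 1 of the 4 that rose, therefore carries no weight. Rasgrp1, which activates Ras downstream of diacylglycerol, rose by 1.63 ± 0.21 on the log2 scale (adjusted p = 0.00132), and Plcg1 by 0.75 ± 0.11 (adjusted p = 0.00222). Fyn, the other Src family kinase of T cells, fell to 19.4 ± 1.72 RPKM in deficient cells, against 41.8 ± 0.413 RPKM in controls (adjusted p = 0.000571). Lck and Fyn thus differed in opposite directions.

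The B cell receptor relay gave a different count. Of its 23 tested genes, 16 rose and 1 fell in the deficient cells, with a median log2 fold change of 0.88. Cd22, used in the sort gate of these cells, was among those that rose and is no finding. Prkcb, the protein kinase C of B cell receptor signalling, was at 145 ± 21.9 RPKM in deficient cells and 37.2 ± 5.40 RPKM in controls (limma adjusted p = 0.000678).

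Regulators of Src family kinases and adaptor partners rose in 9 of 19 cases and fell in 3 in the deficient cells, with a median log2 fold change of 0.36. Ptpn6, the SHP-1 phosphatase that binds inhibitory receptors, was at 384 ± 4.29 RPKM in deficient cells and 91.6 ± 13.6 RPKM in controls (limma adjusted p = 0.000113). The ubiquitin ligase Cbl rose by 1.58 ± 0.14 on the log2 scale (adjusted p = 0.000318). Among 13 relatives and ligands of Cd2, Cd5 and Cd28, 3 rose and 3 fell (median -0.13), and under a series block 4 rose and 6 fell. Over all 10473 genes tested, the series block called 4226 higher and 2603 lower. Pstpip1, which binds the cytoplasmic tail of CD2, was at 60.3 ± 1.20 RPKM in deficient cells and 15.0 ± 0.600 RPKM in controls (adjusted p = 6.22e-05). Alcam, a ligand of Cd6, fell to 18.9 ± 0.734 RPKM in deficient cells, against 58.3 ± 1.71 RPKM in controls (adjusted p = 6.94e-05). Ctla4, an inhibitory receptor of the Cd28 family, fell by 3.26 on the log2 scale (adjusted p = 4.91e-05).

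Of 5 tested ITAM and related adaptor chains 2 rose, with a median of 0.47. Under a series block 3 rose, beside the block's counts over all genes given above. Tyrobp, an ITAM adaptor of myeloid and NK cells, was at 17.8 ± 1.03 RPKM in deficient cells and 3.49 ± 0.169 RPKM in controls (limma adjusted p = 0.00116). Of 8 tested T cell transcription factors 3 rose and 3 fell, or 3 and 4 after rescaling, with a median of 0.01. The factors named next, Id3 and Runx1, are both among those that rose. Id3, an inhibitor of E proteins, was at 55.6 ± 4.56 RPKM in deficient cells and 6.36 ± 2.46 RPKM in controls (adjusted p = 0.000332). Runx1, a factor of T cell development that is also expressed in B cells, rose by 1.10 ± 0.17 on the log2 scale (adjusted p = 0.00282).

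Myeloid markers moved with the deficient group. The GC-normalized files list 4 of the 10 (Emr1, Cd68, Itgam and Tyrobp), all 4 rose, and their summed level was 72.3 to 79.3 RPKM in deficient libraries and 34.3 to 34.7 RPKM in controls. Of 10 NK cell markers they list 3, with sums of 14.1 to 16.0 RPKM in deficient cells and 30.5 to 35.6 RPKM in controls. Of 8 dendritic cell markers they list 6, with sums of 31.8 to 38.4 RPKM in deficient cells and 22.8 to 26.2 RPKM in controls. The part of such cells in the member values was not tested.

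Entry into the GFP+ stage set pre-plasmablasts against activated B cells of the same genotype. In that comparison 4 members were called by limma, with 48.2% of all genes tested called as background. Lat and Lax1 were called with higher values (background 20.2%), and Lck and Cd2 with lower values (background 28%), in pre-plasmablasts. Lat passed the filter only through the pre-plasmablast libraries, the group where it is high, so its call carries no weight. The call on Lat was lost without either activated B cell library and without the second pre-plasmablast library. Under a series block, which called 7289 of the 10473 genes tested, Cd247 was called too. Rescaling moved the median over all genes from -0.12 as deposited to -0.01 and the share of higher calls, 41.9%, to 52.3%. On that scale the log2 differences were -1.26 for Lck, 0.81 for Lat, 4.98 for Lax1 and -1.35 for Cd2.

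Markers of other cells moved here too. The 3 listed NK cell markers summed to 30.5 to 35.6 RPKM in pre-plasmablasts and 4.13 to 4.37 RPKM in activated B cells, and 2 of the 3 rose, among them Il2rb, a chain of interleukin receptors, by 3.08 ± 0.14 on the log2 scale (limma adjusted p = 2.31e-05). Of the 4 listed myeloid markers 1 rose and 3 fell, with sums of 34.3 to 34.7 RPKM in pre-plasmablasts and 37.7 to 44.2 RPKM in activated B cells. Itgam, an integrin chain of myeloid cells, fell by 2.87 on the log2 scale (adjusted p = 5.95e-05). The 6 listed dendritic cell markers summed to 22.8 to 26.2 RPKM in pre-plasmablasts and 51.9 to 59.6 RPKM in activated B cells. What these markers contribute to the member values was not tested.

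Of the 9 tested genes of the T cell receptor relay, 3 rose and 4 fell in pre-plasmablasts, while their median log2 fold change was 0.15. Beside this list and those below, 20.2% of all genes were called higher and 28% lower. Fyn was at 41.8 ± 0.413 RPKM in pre-plasmablasts and 12.5 ± 1.25 RPKM in activated B cells (limma adjusted p = 6.7e-05). Grap2, the Gads adaptor that links Lat to Lcp2, was at 1.62 ± 0.310 RPKM in pre-plasmablasts and 16.0 ± 1.85 RPKM in activated B cells (adjusted p = 5.96e-05). Rasgrp1 fell by 1.81 on the log2 scale (adjusted p = 0.000598) and Vav1, an exchange factor for Rac, by 0.90 (adjusted p = 0.000389). In the B cell receptor relay 1 of 23 tested genes rose and 17 fell, with a median log2 fold change of -1.12 against -0.12 over all genes. Fgr, a further Src family kinase, fell by 2.69 on the log2 scale (adjusted p = 1.54e-05).

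Of 19 regulators of Src kinases, 3 rose and 12 fell in pre-plasmablasts, with a median log2 fold change of -0.78. Ptpn6 was at 91.6 ± 13.6 RPKM in pre-plasmablasts and 432 ± 26.1 RPKM in activated B cells (limma adjusted p = 5.49e-05), and the adaptor Dok2 fell by 2.48 on the log2 scale (adjusted p = 6.7e-05). Relatives and ligands of Cd2, Cd5 and Cd28 rose in 6 of 13 cases and fell in 3, with a median of 0.20. Ctla4 was at 58.6 ± 3.01 RPKM in pre-plasmablasts and 1.50 ± 0.338 RPKM in activated B cells (adjusted p = 1.54e-05), and Slamf1, a Cd2 family receptor, fell by 2.79 on the log2 scale (adjusted p = 0.000258). Of 5 ITAM and related adaptor chains 2 rose and 2 fell, with a median of 0.26. Fcer1g, the Fc receptor gamma chain, was among those that rose, at 10.6 ± 3.17 RPKM in pre-plasmablasts and 2.77 ± 0.153 RPKM in activated B cells (adjusted p = 0.00245). Of 8 T cell transcription factors 2 rose and 4 fell, with a median of -0.80. Lef1, a partner of beta-catenin in early T and B cells, was at 1.86 ± 0.374 RPKM in pre-plasmablasts and 0.108 ± 0.0335 RPKM in activated B cells (adjusted p = 0.00128), while Tbx21 fell by 2.51 on the log2 scale (adjusted p = 0.000121).

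Plasmablasts were then set against pre-plasmablasts. No member was called by limma (0 of 6 tested, with 2.34% of all genes called as background, 0.716% higher and 1.62% lower; Lat, 1 member, at an unadjusted p below 0.05), and 1 was called under a series block. That member was Lat, with a log2 difference of -1.07 ± 0.20, and it passed the filter only through the pre-plasmablast libraries. The number of genes called over all was 245, against 2128 with the block, and it fell to between 23 and 154 when single libraries were left out. Against activated B cells, plasmablasts had 4 members called, with 55.1% of all genes called as background. These were Lck at -1.28 ± 0.18, Lax1 at 5.06 ± 0.23, Cd2 at -1.37 ± 0.16 and Cd8b1 at 0.33 ± 0.10. Over all genes 21.3% were called higher and 33.9% lower. Cd8b1 was under 1 RPKM in every library of both groups and passed the filter only through the Blimp1-deficient libraries. The call on Cd8b1 was lost without either activated B cell library and without the second plasmablast library. With the block, which called 7897 of the 10473 genes tested, Cd247 was called too. Rescaling moved the median over all genes from -0.18 as deposited to -0.01 and the share of higher calls, 38.6%, to 51.6%. In plasmablasts against pre-plasmablasts it moved the share of higher calls, 30.6%, to 42.1%. In plasmablasts the listed NK cell markers summed to 24.0 to 33.1 RPKM, the myeloid ones to 29.7 to 32.1 RPKM and the dendritic cell ones to 9.96 to 10.2 RPKM, beside the pre-plasmablast and activated B cell sums above, and their part in the member values was not tested.

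Blimp1-deficient pre-plasmablasts were also set against activated B cells. Here 3 members were called by limma, with 18% of all genes called as background (10.4% higher and 7.6% lower). These were Lax1 at 2.52 ± 0.23, Cd2 at 0.62 ± 0.16 and Cd8b1 at 2.55 ± 0.10, all with higher values in the deficient cells. Cd8b1 passed the filter only through the deficient libraries, the group where it is high. The call on Cd2 was lost in 7 of the 8 fits that left out a library, all but that without the first activated B cell library. With the library series as a block, which called 4477 of the 10473 genes tested, Lck was called too, at -0.55. This comparison and those above share the activated B cell or control libraries, so their values are not independent. Of the 4 listed myeloid markers 2 rose, with sums of 72.3 to 79.3 RPKM in deficient cells and 37.7 to 44.2 RPKM in activated B cells, and Cd68, a lysosomal protein of macrophages, rose by 1.51 ± 0.09 on the log2 scale (limma adjusted p = 0.000333). The 3 listed NK cell markers summed to 14.1 to 16.0 RPKM in deficient cells and 4.13 to 4.37 RPKM in activated B cells, with Il2rb up by 1.99 ± 0.14 (adjusted p = 0.00056). Their part in the member values was not tested. Pag1, the adaptor that recruits Csk to Src kinases, was at 0.886 ± 0.0957 RPKM in deficient cells and 9.15 ± 1.67 RPKM in activated B cells (adjusted p = 0.00124). The phosphatase gene Ptpn22, which acts on Lck in T cells, was at 101 ± 12.1 RPKM in deficient cells and 28.5 ± 1.39 RPKM in activated B cells (adjusted p = 0.000301).

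**Figure D3:**
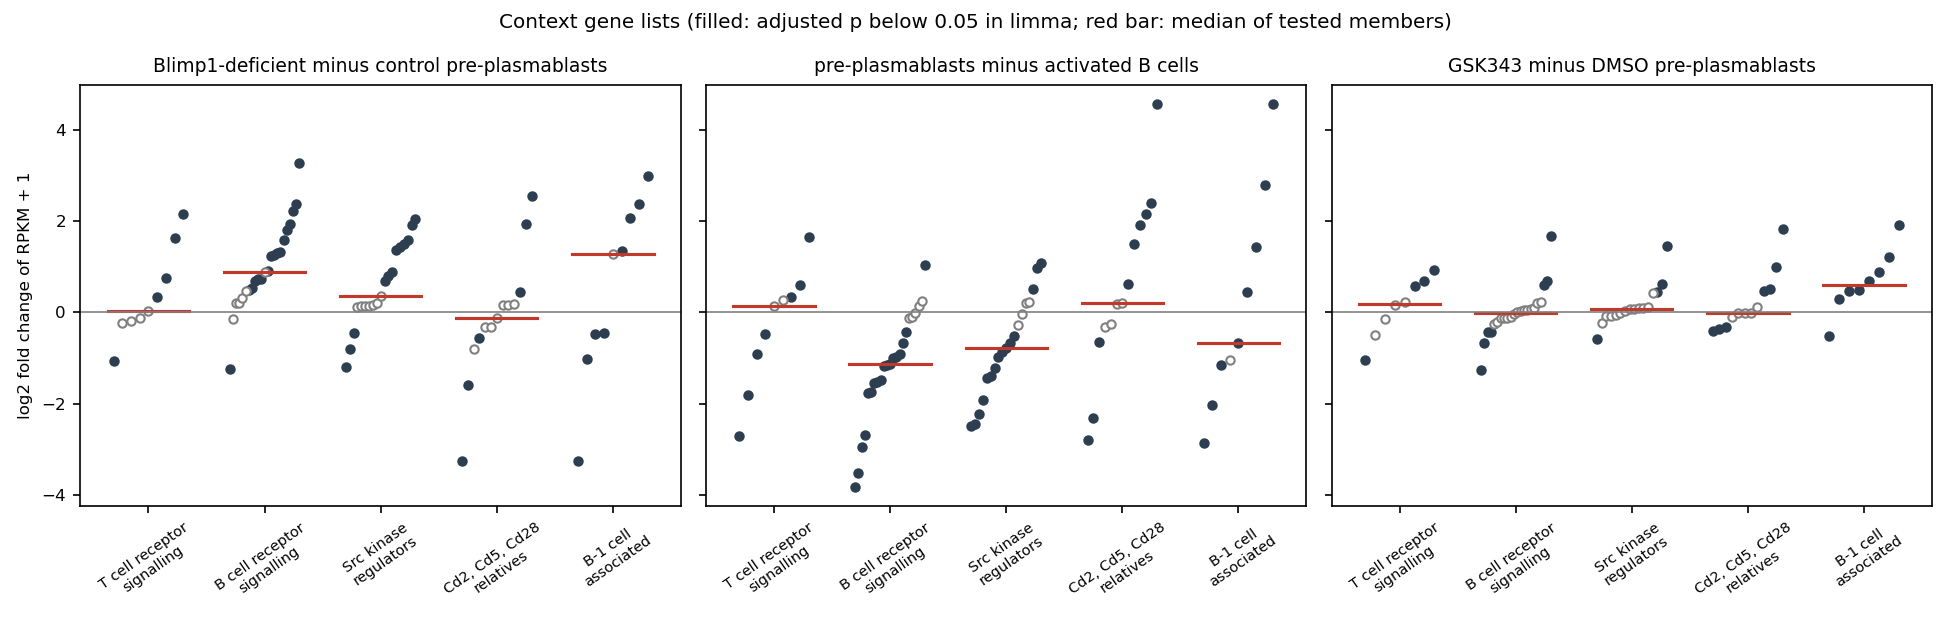
Log2 fold changes of RPKM + 1 (vertical axis) of tested genes in 5 lists, for 3 comparisons, with filled points for a limma adjusted p below 0.05, open points for the rest and red bars at list medians. In the list of B cell receptor signalling 16 of 23 genes rose in Blimp1-deficient cells, against 24.4% of all genes. In pre-plasmablasts against activated B cells 17 of 23 fell, against 28% of all genes. With GSK343 3 of 22 rose and 4 fell, against 12.7% and 5.86% of all genes.

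Inhibition of EZH2, the enzyme that places the repressive methyl mark of Polycomb on histone tails, was tested in Blimp1(GFP/+) pre-plasmablasts. Of the 7 members 6 passed the filter of 1 RPKM in at least 2 of the 4 libraries. Cd8b1 did not pass, and Cd5 passed only through the GSK343 libraries. Limma called 5 members, with 18.6% of all 9479 genes tested called as background. Lck, Lat and Cd5 were called with higher values (background 12.7%) and Lax1 and Cd2 with lower values (background 5.86%). The call on Lat was lost without the first GSK343 library and that on Lax1 without the second. Over all genes, 1763 were called, against 914 without the first and 876 without the second GSK343 library.

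Markers of other cells were read in the same libraries. The 8 dendritic cell markers summed to 73.5 to 76.8 RPKM with GSK343 and 40.2 to 46.9 RPKM with DMSO. Of the 3 tested, 1 rose and 1 fell. The gene that rose, the chemokine receptor gene Ccr9, was at 59.4 ± 2.17 RPKM with GSK343 and 24.0 ± 5.78 RPKM with DMSO (limma adjusted p = 8.96e-05). The gene that fell, Flt3, was at 13.5 ± 0.357 RPKM with GSK343 and 18.0 ± 0.964 RPKM with DMSO. The higher sum was thus not shared by each marker. The 10 NK cell markers summed to 4.01 to 6.26 RPKM with GSK343 and 2.51 to 3.96 RPKM with DMSO. Prf1, the pore protein perforin, was up by 1.17 ± 0.16 on the log2 scale (limma adjusted p = 0.000522). It passed the filter only through the GSK343 libraries, the group where it is high, so its call carries no weight. Ncr1, Klrd1, Klre1 and Klrk1 were at 0 in all 4 libraries. The 9 listed myeloid markers summed to 13.9 to 14.2 RPKM with GSK343 and 16.8 to 17.1 RPKM with DMSO, and of 3 tested 1 rose and 1 fell. The share of such cells in the member values was not tested.

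Around these members, the T cell receptor relay gave 3 genes that rose and 1 that fell with GSK343 among 8 tested. The median log2 fold change was 0.19, against 0.02 over all genes. Beside this list and those below, 12.7% of all genes were called higher and 5.86% lower. Sh2d2a, an adaptor that binds Lck, was at 10.4 ± 0.476 RPKM with GSK343 and 4.98 ± 0.272 RPKM with DMSO (limma adjusted p = 0.000344). Fyn was at 24.8 ± 1.32 RPKM with GSK343 and 14.9 ± 0.270 RPKM with DMSO (adjusted p = 0.000561). Grap2 rose by 0.57 ± 0.15 on the log2 scale (adjusted p = 0.025), a call lost without the first GSK343 library and with no filter on low values. Grap2 passed the filter only through the GSK343 libraries, the group where it is high, so its call carries no weight. Sit1, a transmembrane adaptor that restrains T cell signalling, fell to 5.73 ± 0.401 RPKM with GSK343, against 12.9 ± 0.893 RPKM with DMSO (adjusted p = 0.000157).

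In the B cell receptor relay 3 of 22 tested genes rose and 4 fell with GSK343, with a median log2 fold change of -0.01. The rises were near the share over all genes, 12.7%. Bank1, a B cell scaffold, fell by 1.27 on the log2 scale (limma adjusted p = 3.68e-05) and Lat2, the B cell counterpart of Lat, fell to 37.2 ± 3.51 RPKM with GSK343, against 59.2 ± 0.312 RPKM with DMSO (adjusted p = 0.000522). Of 16 regulators of Src kinases 3 rose and 1 fell, with a median of 0.08. Ubash3b, a phosphatase that acts on Syk and Zap70, rose by 1.45 ± 0.14 on the log2 scale (adjusted p = 4.78e-05), and Sla, an adaptor that lowers receptor levels, fell by 0.59 (adjusted p = 0.00059).

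Among relatives of Cd2, Cd5 and Cd28, 4 of 12 rose and 3 fell with GSK343, with a median log2 fold change of -0.01. Cd28, the costimulatory receptor of T cells that is also found on plasma cells, was at 6.81 ± 0.593 RPKM with GSK343 and 1.21 ± 0.0499 RPKM with DMSO (limma adjusted p = 7.93e-06). Fcer1g was at 14.2 ± 0.768 RPKM with GSK343 and 2.34 ± 0.361 RPKM with DMSO (adjusted p = 2.19e-06). It was the 1 gene that rose among 5 ITAM and related adaptor chains (median -0.20), and Hcst, an adaptor of NK cell receptors, was the 1 that fell, by 0.63 on the log2 scale (adjusted p = 0.00328). Of 8 T cell transcription factors 3 rose and 1 fell, among them Tox, needed for T cell development, at 4.83 ± 0.213 RPKM with GSK343 and 1.27 ± 0.223 RPKM with DMSO (adjusted p = 7e-05).

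Since Cd5 marks the B-1a subset, genes associated with B-1 cells were listed too. Of 8 tested, 7 rose and 1 fell with GSK343, or 6 and 1 after rescaling, with a median log2 fold change of 0.60. Over all genes 12.7% were called higher and 5.86% lower. Spn, the CD43 sialoglycoprotein, was at 105 ± 0.821 RPKM with GSK343 and 44.4 ± 2.19 RPKM with DMSO (limma adjusted p = 4.51e-06). Bhlhe40, a transcription factor, was at 14.6 ± 1.54 RPKM with GSK343 and 3.14 ± 0.365 RPKM with DMSO (adjusted p = 5.19e-06). The tetraspanin gene Cd9 rose by 0.69 ± 0.09 on the log2 scale (adjusted p = 0.000389). The list was chosen with results of these libraries known. In Blimp1-deficient against control pre-plasmablasts 4 of its 9 tested genes rose and 4 fell, beside 24.4% higher and 16.1% lower over all genes. In plasmablasts against activated B cells 4 of the 9 also rose and 4 fell, beside 21.3% higher and 33.9% lower over all genes. Calls in this list were thus not particular to GSK343.

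Relative to their B lineage counterparts, the members kept quite different proportions. Lck was 37.0% and 36.7% of the level of Lyn with GSK343, against 12.1% and 10.8% with DMSO. In Blimp1-deficient pre-plasmablasts it was 5.48% and 5.73% of Lyn, against 4.85% and 9.52% in control pre-plasmablasts, ranges that overlapped. Lyn was thus the more abundant kinase in every library. Lck was 2.62% and 2.98% of Blk in deficient cells, against 3.01% and 5.35% in control pre-plasmablasts, lower without overlap. With GSK343 it was 14.3% and 12.9% of Blk, against 4.00% and 4.18% with DMSO. Lat was 9.26% and 9.83% of Lat2 with GSK343, against 3.55% and 2.69% with DMSO. Lax1 was 36.3% and 40.5% of Lat2 in deficient cells, against 317% and 343% in control pre-plasmablasts and 3.12% and 6.16% in activated B cells. It was the more abundant adaptor of that pair in pre-plasmablasts, plasmablasts and plasma cells of Blimp1-sufficient cells and the less abundant in deficient and activated cells. Cd247 was at most 1.11% of Cd79a in any library.

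**Figure D4:**
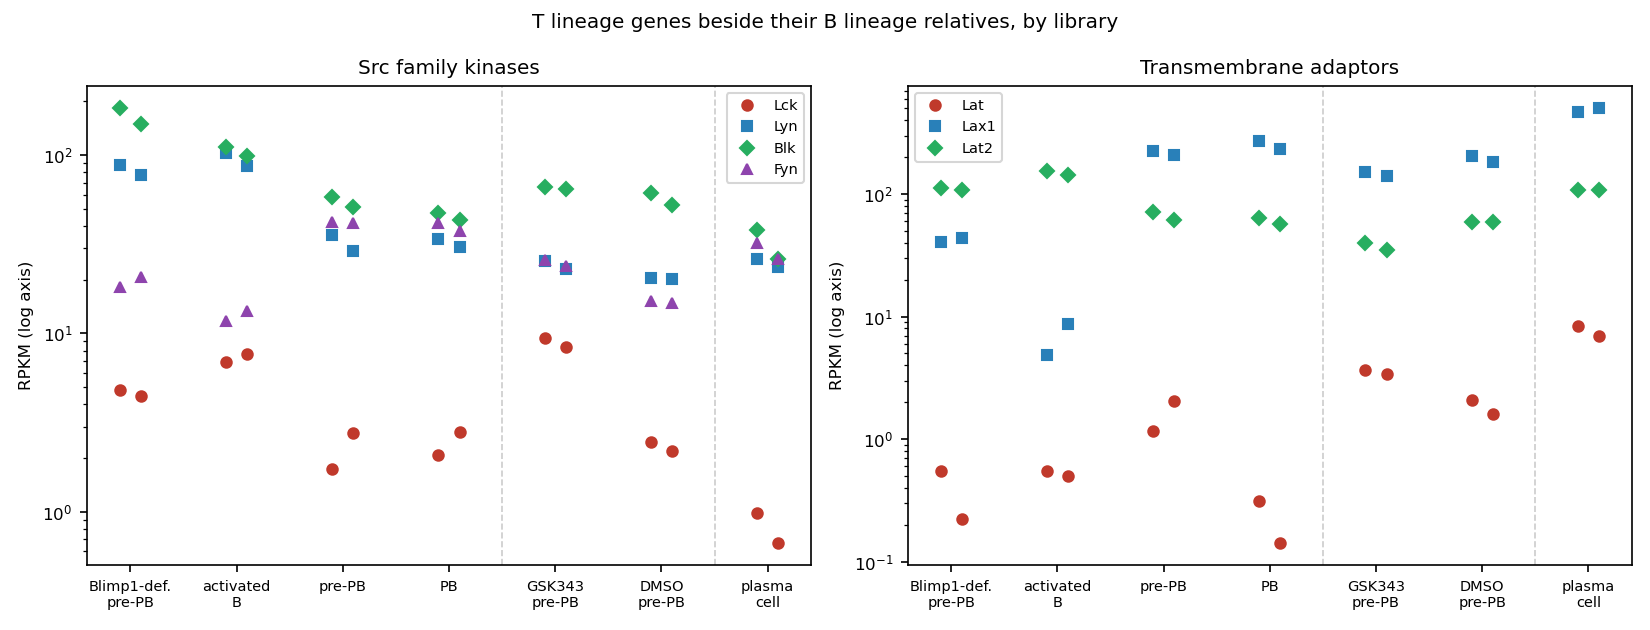
RPKM on a log axis (vertical) of Lck beside the Src family kinases Lyn, Blk and Fyn, and of Lat and Lax1 beside the adaptor Lat2, in each of the 14 libraries by group. Lck lies under the other 3 kinases in every library, and with GSK343 stands at 37.0% and 36.7% of the level of Lyn.

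Genes with the most similar profiles were sought by Pearson r over the 8 GC-normalized libraries, among genes with a range of at least 1 in log2(RPKM + 1). The libraries form 4 groups and 2 series, so a high r can go with a shared order of groups or of series, and the values are a description. For Cd247 the group ranges overlapped and the second library was the higher one in every group. Lax1 was closest to Edem1, which acts in disposal of misfolded glycoproteins, Irf4, a factor required for plasma cells, and the cytokine gene Il10, each at r = 0.997. Cd2 was closest to Itgb1, the beta chain of many integrins (r = 0.996), to Slc37a2 (r = 0.994) and to Cnp (r = 0.992). Lck was closest to Mast3 (r = 0.990), Zfp217 and Bmyc (r = 0.989 each). Cd8b1 was closest to Syn3 and Cyp1a1 (r = 0.997 each) and Mxra8 (r = 0.996). The remaining members had ranges of 1.42 for Lat, 0.74 for Cd5 and 0.72 for Cd247. Among those closest to Lat were Itga6 (r = 0.929) and C030019I05Rik (r = 0.888). Cd5 was closest to Gmfg (r = 0.861), RP23-440D19.1 (r = 0.824) and Agpat9 (r = 0.817), and Cd247 to Ap2m1 (r = 0.986), Gpr65 (r = 0.984) and 1110008F13Rik (r = 0.977).

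Defining markers of T cells were checked in the same libraries. Of 12 such genes the GC-normalized files list 2, which stayed under 1 RPKM in each of the 8 libraries. Their summed level was 0.817 to 0.854 RPKM in Blimp1-deficient pre-plasmablasts, against 0.570 to 0.674 RPKM in control pre-plasmablasts. The inhibitor files list all 12, none at 1 RPKM, with sums of 1.03 to 1.69 RPKM with GSK343 and 0.551 to 0.866 RPKM with DMSO. Cd3e, Trat1 and Themis were at 0 in both GSK343 libraries, and these 3 with Cd8a and Bcl11b were at 0 in both DMSO libraries. The 7 B cell identity genes summed to 3022 to 3382 RPKM with GSK343 and 3459 to 3639 RPKM with DMSO.

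In the plasma cell libraries markers of other cells were present. The sum over the 12 T cell markers was 23.2 to 33.7 RPKM, carried by Tcf7 at 17.6 and 12.2 RPKM and Cd4 at 12.8 and 8.87 RPKM, with Cd3g at 1.60 and 0.631 RPKM. Cd3e stood at 0.197 and 0.123 RPKM, Cd3d at 0.255 and 0.177 RPKM and Trat1 at 0. Myeloid markers summed to 97.2 to 142 RPKM, with 7 of the 9 listed at 1 RPKM or more in a library, Lyz2, Csf1r, S100a8 and S100a9 among them. NK cell markers summed to 60.6 to 83.2 RPKM, with Ncr1, Klrd1 and Klre1 at 0. In these same 2 libraries stood the plasma cell levels of Lat, Lax1 and Cd247 given above, and the part of other cells in those levels was not tested.

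**Figure D5:**
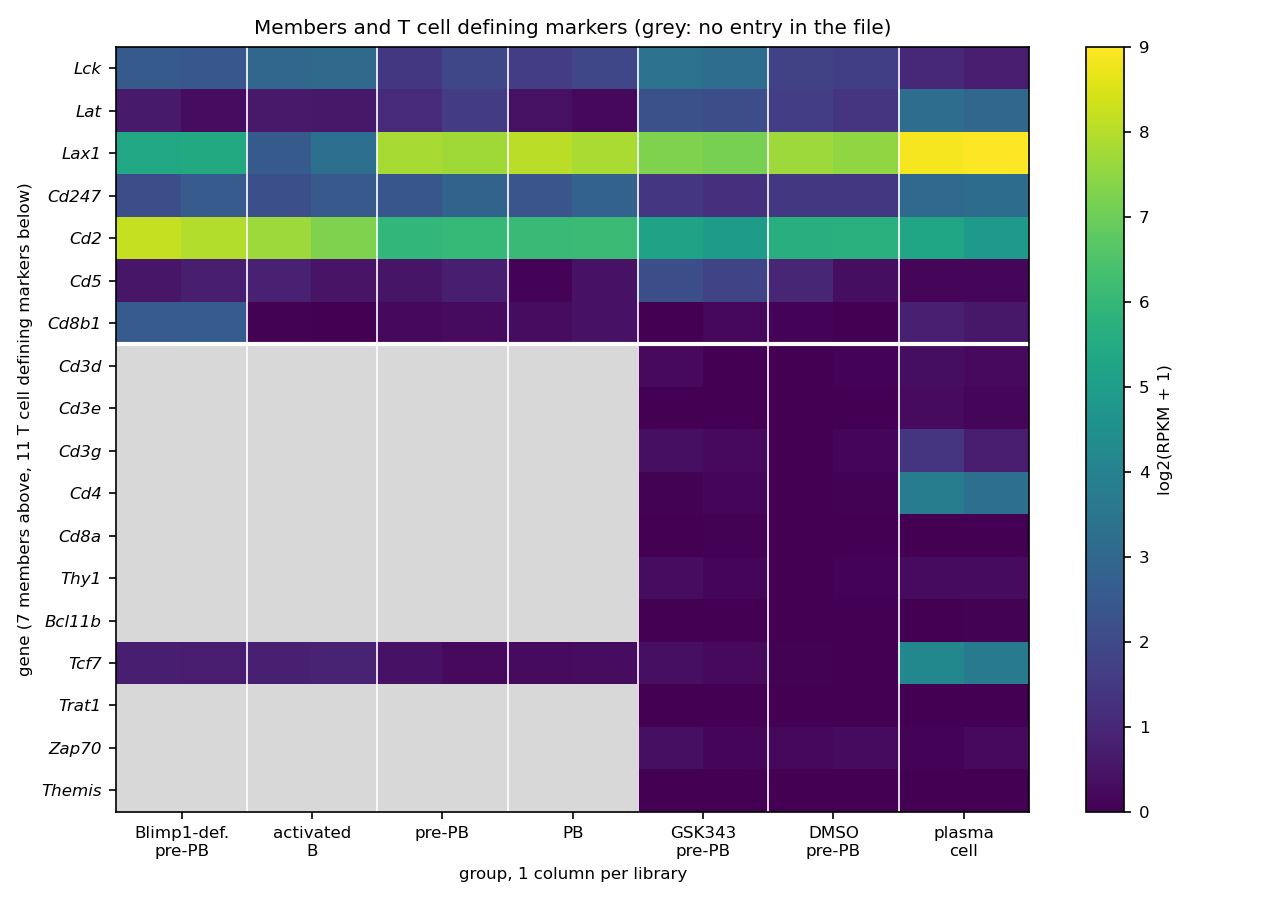
Colour scale of log2(RPKM + 1) for the 7 members (upper rows) and 11 of the 12 defining markers of T cells (lower rows) in 14 libraries (columns, by group), with grey where a file type does not list the gene. Cd4 and Tcf7 are at 12.8 and 17.6 RPKM in the first plasma cell library, and no marker that is listed reaches 1 RPKM in cultured cells, where the GC-normalized files list 2 of the 12.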

How the data were processed

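Polyadenylated RNA of 14 of the 38 samples was analysed, and the other 24 samples were not analysed here. The submitters' processing notes name DESeq 1.8.3, HTSeq 0.5.3, SICER, TopHat 1.4.1 and the build mm9, without saying what each did. The authors deposited RPKM values, GC-normalized per the file names for 8 libraries and without that step for 6, and the annotation used is not given in the sources used here. Each plasma cell file holds 5 summary names of a read counter in its name column, which were dropped so that names and values line up. The correlation across genes with the first DMSO library was 0.274 before and 0.90 after. Entries with a repeated name were left out (126 in GC-normalized, 375 in inhibitor and 420 in plasma cell files). The depth behind GC-normalized values is unknown. Relative to the first DMSO library, the depth was 0.848 for the second DMSO library and 1.008 and 0.832 for the GSK343 libraries.

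A gene entered the test if 2 or more libraries reached 1 RPKM. Values were tested on log2(RPKM + 1) with limma 3.58.1 in R 4.3.3 (eBayes with trend, two-sided, Benjamini-Hochberg adjustment over all genes, threshold 0.05). The 8 GC-normalized libraries shared 1 fit and the 4 inhibitor libraries had their own. Plasma cells gave levels only. The step was also run on simulated data in which libraries vary independently. That setting has no library series, so it cannot speak to the series effect described below. Fold changes on this scale understate changes of low genes. Tables and plots were made with Python 3.11.15, pandas 2.3.3 and matplotlib 3.10.9. The labels do not state whether both libraries of a group stem from different mice or cultures. The p-values therefore reflect the spread among these samples alone, and that spread could be technical. Library numbers in the titles form 2 series, and deviations from group means correlated between same-series libraries at 0.67 to 0.78 over 10473 genes, so the series was taken to pair the libraries.

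The members and the gene lists were chosen with earlier results of these data known. Of each list, at most 4 called genes a comparison with the largest absolute fold change could be named, beside defining markers of other cell types at 1 RPKM or more. Alternatives were another pseudocount, no filter, median-of-ratios scaling, no trend, a fit on 2 groups, the library series as a block, and leaving out each library. Results on a few genes are not reported here.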

Additional observations from a re-analysis of the deposited data

How the results depend on the processing

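Differences of the 7 members in 6 comparisons were recomputed under each alternative. Of 238 values under alternatives other than leaving out a library, 24 moved by more than the spread between replicates, 20 of them with a pseudocount of 0.1 and 4 with rescaling, and none of the called differences changed sign. With a pseudocount of 0.1, Cd8b1 differed by 4.21 in Blimp1-deficient against control pre-plasmablasts and Cd5 by 2.34 with GSK343 against DMSO. That pseudocount also gave a call on Cd8b1 in pre-plasmablasts against activated B cells. Cd8b1 was under 1 RPKM in every library of both groups and passed the filter only through the Blimp1-deficient libraries. The number of members called in plasmablasts against pre-plasmablasts, 0 as reported, was 1 with no filter, with rescaling, with no trend and with the library series as a replicate block. Over all genes, that comparison gave 1 call with only the 2 groups in the fit and 2128 with the block. Blimp1-deficient against control pre-plasmablasts gave 6829 with the block, and deficient pre-plasmablasts against activated B cells gave 1227 with only the 2 groups and 4477 with the block. Apart from the calls named beside the results, the block changed no member's call. Leaving out each library gave 3 to 4 members and 3694 to 4844 genes called in pre-plasmablasts against activated B cells. The ranges were 0 to 0 members and 23 to 154 genes in plasmablasts against pre-plasmablasts, and 3 to 4 members and 4555 to 5646 genes in plasmablasts against activated B cells. They were 4 to 5 members and 2996 to 3893 genes in deficient against control pre-plasmablasts. In deficient pre-plasmablasts against activated B cells they were 2 to 3 members and 763 to 1613 genes, the fewest without the first activated B cell library. With GSK343 against DMSO they were 4 to 5 members and 876 to 1951 genes. Where a group kept 1 library, that library was assumed to vary like the other groups. With no filter the call on Lat with GSK343 was lost, and with only the 2 groups compared those on Cd8b1 in plasmablasts and on Cd2 in deficient cells, each against activated B cells, were lost. Of 48 calls given with a p-value on named genes outside the member set, 1 was lost under any alternative, that on Grap2 with GSK343. No paired analysis was possible in the inhibitor experiment because its labels give no number or series shared between the groups. Values below 1 RPKM rest on few or an unknown number of reads.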
